A study of Homo sapiens with 9 samples.

Results

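The 46 genes described here encode the machinery that licenses and copies DNA, supplies its nucleotides and protects replication forks in S phase. They were listed by name from 58237 genes with a row, with earlier results of these data known. All 46 were among the 18205 genes with enough reads to be tested. RNA-seq was done on total RNA of H358, an established human non-small cell lung carcinoma line kept in RPMI with serum, in 3 groups of 3 libraries. The BRG1 knockout is a CRISPR knockout of SMARCA4, the BRM knockout is a CRISPR knockout of SMARCA2, and the parental H358 line is the control. Each SWI/SNF complex, which moves nucleosomes on chromatin, carries either BRG1 or BRM as its motor, and the comparisons ask how the loss of each changed these genes. Whether the edited cells are clonal or pooled, where the guides cut and whether numbered replicates are separate cultures is not stated in these sources. The p-values therefore reflect the spread among the libraries alone, and that spread may be technical. No non-targeting control is among the samples, so effects of editing and of the lost gene cannot be told apart.

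Before S phase, the origin recognition complex, CDC6 and CDT1 load the MCM helicase on DNA, and CDC45 and the GINS complex then switch it on. DNA polymerases alpha, delta and epsilon copy the strands with the sliding clamp PCNA, while ribonucleotide reductase, thymidylate synthase and thymidine kinase provide nucleotides. Many of these genes are known targets of E2F transcription factors and are known to be transcribed most around the start of S phase, so in cultured cells their RNA is widely read as a sign of proliferation.

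The libraries held between 31969961 and 40679073 estimated reads. The replication genes took 0.187%, 0.281% and 0.294% of the reads in BRG1 knockout libraries 1, 2 and 3, 0.128%, 0.084% and 0.0601% in BRM knockout libraries 1, 2 and 3, and 0.381%, 0.527% and 0.543% in parental libraries 1, 2 and 3. SMARCA4 had 23.9, 21.1 and 23.6 CPM in the BRG1 knockout libraries, 239.8, 245 and 249 CPM in the BRM knockout libraries and 244, 216 and 212 CPM in the parental libraries, where CPM is TMM-scaled counts per 1e6 reads. SMARCA2 had 42.4, 32.0 and 61.2 CPM in the BRG1 knockout libraries, 10.3, 12.0 and 9.36 CPM in the BRM knockout libraries and 49.3, 58.0 and 55.5 CPM in the parental libraries. Each targeted gene was therefore lower in every library of its own knockout than in any other library. Epithelial markers summed to 709, 936 and 432 TPM (transcripts per 1e6, a level per length) in BRG1 knockout libraries 1, 2 and 3, 5217 to 5802 TPM in BRM knockout libraries and 5453 to 5610 TPM in parental libraries, so the parental line carried the markers of its labelled origin. In BRG1 knockout library 3, 5 of the 7 epithelial markers reached 1 TPM, beside all 7 in every other library. Fibroblast markers summed to 147, 131 and 352 TPM in BRG1 knockout libraries 1, 2 and 3, 47.4 to 65.4 TPM in BRM knockout libraries and 22.4 to 45.6 TPM in parental libraries, with at most 1 of the 7 at 0 in a library. The 4 endothelial markers summed to 0.864 to 1.12 TPM in BRG1 knockout libraries, 12.6 to 18.5 TPM in BRM knockout libraries and 1.46 to 2.42 TPM in parental libraries. Of these, KDR, a receptor for vascular growth factors, rose in the BRM knockout with a log2 fold change of 3.64 (adjusted p = 3.9e-05), as did VWF with 1.77 (adjusted p = 0.021), while PECAM1 and CDH5 did not pass. The 5 blood markers summed to 1.45 to 2.16 TPM in BRG1 knockout libraries, 1.94 to 3.35 TPM in BRM knockout libraries and 2.00 to 2.92 TPM in parental libraries. The part of these markers in the results below was not tested.

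All 46 genes fell in the BRM knockout against the parental line, at an adjusted p (edgeR quasi-likelihood test) of 0.013 or less. Among all genes tested, 16.4% fell in that comparison and 37.4% passed in either direction. Their median log2 fold change was -2.50, a level 5.67-fold lower, against 0.09 over all genes tested. In the BRG1 knockout 25 of the 46 fell and 21 did not pass the test. Among all genes, 21.9% fell there and 43.5% passed in either direction. None of the 46 rose in the BRG1 knockout, where 21.6% of all genes rose. The median log2 fold change there was -0.84, a level 1.79-fold lower, against -0.01 over all genes. The 3 BRM knockout libraries lay below the 3 parental libraries for all 46 genes, which held for 26.1% of all genes, while 32.1% of all genes had the 3 BRM knockout libraries above the parental ones. The 3 BRG1 knockout libraries lay below the parental libraries for 28 of the 46, which held for 27.1% of all genes. The BRG1 count depended on the libraries in the fit. It was 16 without parental library 2 and 15 without parental library 3, where 17.4% and 16.8% of all genes fell. It was 5 when BRG1 knockout libraries 1 and 2 were both left out, which leaves a lone library assumed to vary like the other groups, and 15.6% of all genes fell there, so that count was not above the share of all genes. In a bulk sample, fewer cells in S phase and less RNA per cell cannot be told apart.

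**Figure D1:**
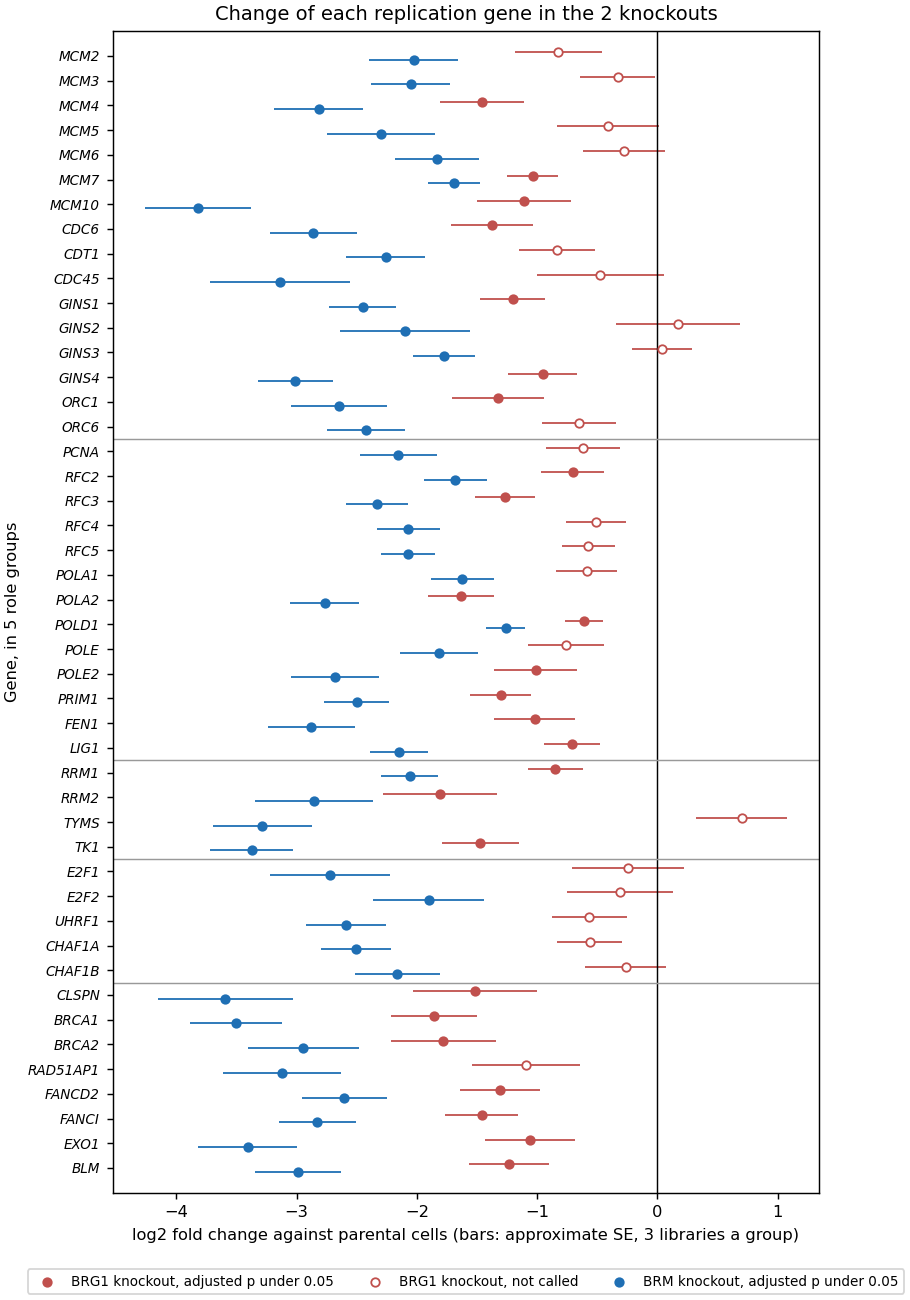
Log2 fold change (horizontal axis) of each of the 46 replication genes (rows, in 5 role groups separated by lines) in the BRG1 knockout (red) and the BRM knockout (blue) against parental cells, with bars for the approximate SE. Filled points passed an adjusted p of 0.05: all 46 in the BRM knockout, 25 in the BRG1 knockout, and every blue point lies left of its red point.

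Set directly against each other, the BRG1 knockout had more RNA than the BRM knockout for 44 of the 46 genes, beside 21.6% of all genes that were higher in that comparison. The median difference was 1.56 on the log2 scale, a level 2.95-fold higher in the BRG1 knockout, against -0.0016 over all genes. RRM2 and BRCA2 did not pass this test, with log2 differences of 1.05 ± 0.47 (adjusted p = 0.094) and 1.17 ± 0.44 (adjusted p = 0.053). The 3 libraries of each knockout did not overlap for 42 of the 46, with all BRG1 knockout libraries higher, which held for 26.5% of all genes. The 4 that overlapped were MCM2, POLE, E2F2 and BRCA2. The direct calls for POLE, E2F2 and RFC2 were lost in 5, 4 and 2 of the alternative fits. All 3 comparisons share libraries, so a gene's 3 values are not independent.

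The libraries of a group were not alike. Measured from the parental mean, the replication genes' median log2 difference stood at -1.28, -0.68 and -0.64 in BRG1 knockout libraries 1, 2 and 3, -2.12, -2.47 and -3.12 in BRM knockout libraries 1, 2 and 3, and -0.30, 0.16 and 0.17 in parental libraries 1, 2 and 3. BRG1 knockout library 1 was the lowest of its group for all 46 genes, BRM knockout library 3 for 42 and parental library 1 for 45. No knockout library's median reached that of a parental library. The reads held by ribosomal protein genes were 9.57%, 10.1% and 5.42% of the total in BRG1 knockout libraries 1, 2 and 3, 5.88% to 5.94% in BRM knockout libraries and 4.57% to 5.36% in parental libraries. The share of ribosomal RNA genes was taken as a sign of library quality. It includes mitochondrial ribosomal RNA and ribosomal RNA pseudogenes, which were not separated. These genes held 0.492%, 0.357% and 0.392% of the reads in BRG1 knockout libraries 1, 2 and 3, 0.437%, 0.651% and 0.531% in BRM knockout libraries 1, 2 and 3, and 0.220%, 0.154% and 0.167% in parental libraries 1, 2 and 3. Every knockout library was above every parental one, and BRG1 knockout library 1 and parental library 1, with the lowest replication gene medians of their groups, were the highest of their groups, while in the BRM knockout library 2 was the highest. The part of either share in the result was not tested.

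**Figure D2:**
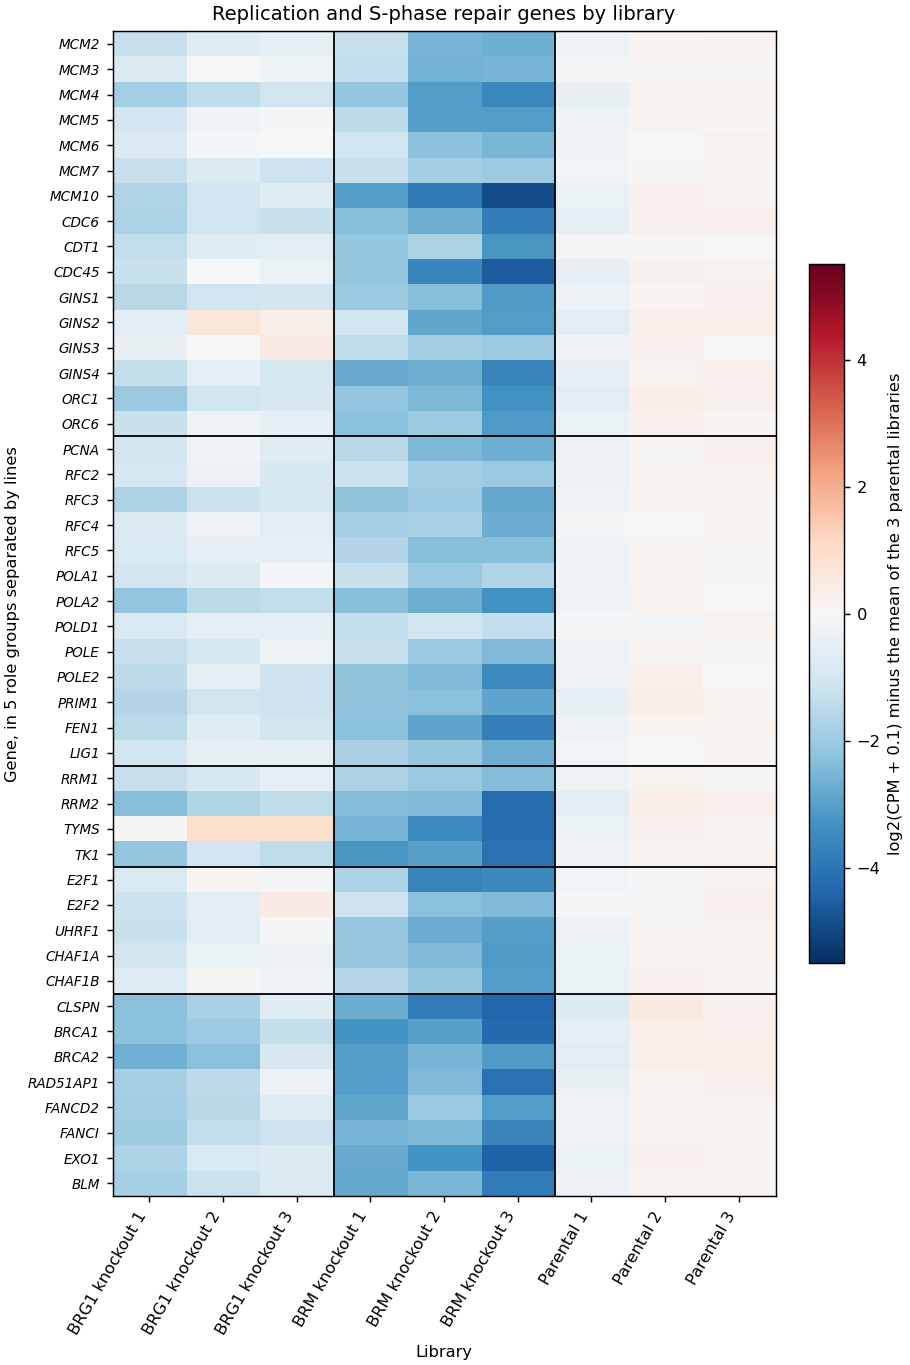
Log2(CPM + 0.1) of the 46 replication genes (rows, in 5 role groups) in each of the 9 libraries (columns), as the difference from the mean of the 3 parental libraries, with blue for lower and red for higher. The BRM knockout columns are blue throughout and darkest in library 3, and the BRG1 knockout columns are paler, with GINS2 and TYMS red in libraries 2 and 3.

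Promoter sequences from RefSeq (GRCh38.p14, 250 bases before to 50 after a start site) were found for 42 of the 46 genes, and none for MCM4, MCM5, GINS4 and FANCI. E2F-type motifs, searched as TTTCCCGC, TTTGGCGC, TTTCGCGC and TTTGCCGC on both strands with overlaps allowed, lay in 24 of 54 promoters of these genes (44.4%), against 1164 of 35116 promoters in the table (3.31%). Of 107 promoters of the other replication genes named below, 20 held one (18.7%), and of 21 promoters of mitosis genes 3 did (14.3%). The CHR motifs TTTGAA and TTCGAA, known from mitosis genes, lay in 3.7% of the replication gene promoters, 16.4% of all promoters and 76.2% of the mitosis gene promoters. Median GC content was 65.0% in the replication gene promoters, 58.7% in all promoters and 58.3% in the mitosis gene promoters. A match is a description of the letters and not a site shown to be bound.

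The stretches below show how the motif sits upstream of 6 of these genes, and 2 genes without it for contrast. Each lies upstream of the RefSeq start site, outside every GENCODE 29 exon, and is printed 5′ to 3′ on the gene's strand with the E2F-type letters in capitals. MCM6, a helicase subunit, has 4 overlapping matches in a repeated arrangement (chr2:135876444-135876603, minus strand).
MCM6: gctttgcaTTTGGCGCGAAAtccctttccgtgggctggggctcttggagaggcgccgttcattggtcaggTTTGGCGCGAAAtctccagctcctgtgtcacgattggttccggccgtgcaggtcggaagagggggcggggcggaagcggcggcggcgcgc
MCM3 is another helicase subunit (chr6:52284882-52284951, minus strand).
MCM3: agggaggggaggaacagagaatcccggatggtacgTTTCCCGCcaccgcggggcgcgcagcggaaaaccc
E2F1 and E2F2 are themselves E2F factors (chr20:33686405-33686474 and chr1:23531234-23531303, both minus strand).
E2F1: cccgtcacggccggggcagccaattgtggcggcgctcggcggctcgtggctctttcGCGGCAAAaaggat
E2F2: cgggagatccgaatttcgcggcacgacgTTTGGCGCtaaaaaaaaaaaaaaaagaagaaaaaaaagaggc
PCNA is the sliding clamp (chr20:5126627-5126696, minus strand) and POLA1 the catalytic subunit of polymerase alpha (chrX:24693758-24693827, plus strand).
PCNA: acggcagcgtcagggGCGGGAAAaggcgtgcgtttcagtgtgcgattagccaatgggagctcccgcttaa
POLA1: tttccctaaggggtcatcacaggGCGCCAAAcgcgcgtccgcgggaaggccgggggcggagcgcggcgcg
MCM10, with the lowest log2 fold change of the 46 in the BRM knockout, and RRM1, the large subunit of ribonucleotide reductase, held none of the 4 motifs in their whole 300-base windows (chr10:13161484-13161553 and chr11:4094615-4094684, both plus strand).
MCM10: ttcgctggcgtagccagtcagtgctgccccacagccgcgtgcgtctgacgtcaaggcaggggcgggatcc
RRM1: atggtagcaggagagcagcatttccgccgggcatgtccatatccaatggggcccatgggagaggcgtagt
The 23 genes with such a motif had a median log2 fold change of -0.76 in the BRG1 knockout and -2.26 in the BRM knockout, and the 19 without it had -1.02 in the BRG1 knockout and -2.65 in the BRM knockout. The genes with the motif did not have the lower median in either knockout.

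Licensing and helicase genes numbered 16. All 16 fell in the BRM knockout, with a median log2 fold change of -2.36, and 7 fell in the BRG1 knockout, with a median of -0.83: MCM4, MCM7, MCM10, CDC6, GINS1, GINS4 and ORC1. MCM4, a helicase subunit with the highest level of the 46 in parental cells (ENSG00000104738.17, chr8:47960185-47978160, plus strand), had 150.3, 209 and 257 CPM in the BRG1 knockout libraries, 127, 66.6 and 46.8 CPM in the BRM knockout libraries and 413, 639.8 and 639.6 CPM in the parental libraries. No library overlapped between groups, and the BRM knockout was lowest. The log2 fold change was -1.46 ± 0.35 (adjusted p = 0.0068) in the BRG1 knockout and -2.82 ± 0.37 (adjusted p = 0.0004) in the BRM knockout, levels 2.74-fold and 7.05-fold lower.

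MCM7, another helicase subunit (ENSG00000166508.17, chr7:100092728-100101940, minus strand), had 150.4, 210.4 and 165 CPM in the BRG1 knockout libraries, 148, 96.6 and 90.1 CPM in the BRM knockout libraries and 319, 372 and 388 CPM in the parental libraries. Its libraries did not overlap, but BRM knockout library 1 came close to BRG1 knockout library 1. MCM7 changed least of the group in the BRM knockout, with a log2 fold change of -1.69 ± 0.21 (adjusted p = 0.00031), and had -1.04 ± 0.21 (adjusted p = 0.0025) in the BRG1 knockout. MCM10, which helps to start the activated helicase (ENSG00000065328.16, chr10:13161554-13211104, plus strand), had 14.1, 21.2 and 27.9 CPM in the BRG1 knockout libraries, 5.31, 2.89 and 1.44 CPM in the BRM knockout libraries and 34.5, 52.4 and 49.4 CPM in the parental libraries. Every BRM knockout library was below every other library, and the BRG1 knockout lay between BRM knockout and parental cells. MCM10 had the largest fall of the 46 in the BRM knockout, -3.82 ± 0.44 (adjusted p = 0.00024) on the log2 scale or 14.1-fold, and -1.11 ± 0.39 (adjusted p = 0.042) in the BRG1 knockout. The BRG1 call for MCM10 was lost in 8 of the alternatives run, with adjusted p from 0.051 to 0.41.

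GINS2, a subunit of the GINS complex that joins the MCM helicase (ENSG00000131153.8, chr16:85676198-85690073, minus strand), had 28.5, 68.2 and 54.0 CPM in the BRG1 knockout libraries, 20.2, 5.78 and 5.09 CPM in the BRM knockout libraries and 29.1, 51.6 and 52.9 CPM in the parental libraries. The BRG1 knockout libraries enclosed the parental range, and the BRM knockout libraries lay below both. GINS2 did not pass the test in the BRG1 knockout, with a log2 fold change of 0.17 ± 0.52 (adjusted p = 0.81), and fell in the BRM knockout, with -2.10 ± 0.54 (adjusted p = 0.013). The BRM call for GINS2 was lost when no filter on low counts was used (adjusted p = 0.072). GSE1 overlaps GINS2 on the other strand and held 503% of its reads, so without a stated strand setting some reads may be misplaced.

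The other licensing genes were also lower in the BRM knockout than in the BRG1 knockout, each by the direct test. That call was not stable for MCM2, whose libraries overlapped between the knockouts. It was lost without BRG1 knockout library 2 or 3 or BRM knockout library 2 or 3, among other alternatives. The direct calls for ORC1 and for MCM7, described above, were lost in 3 and 5 alternatives. MCM2, MCM3, MCM5 and MCM6, the other helicase subunits named here, had log2 fold changes of -0.82, -0.33, -0.41 and -0.28 in the BRG1 knockout, none of which passed the test, and -2.03, -2.05, -2.30 and -1.83 in the BRM knockout. The loading factors differed in call in the BRG1 knockout, where CDC6 fell (-1.38 ± 0.34 (adjusted p = 0.0083)) and CDT1 did not pass (-0.84 ± 0.31 (adjusted p = 0.052)), while in the BRM knockout they had -2.86 and -2.26. CDT1 did pass in the BRG1 knockout in 6 alternatives, DESeq2's size factors and Wald test among them, with adjusted p from 0.011 to 0.049, so the difference in call between the 2 loading factors was not stable. Of the GINS subunits, GINS1 and GINS4 fell in the BRG1 knockout (-1.20 and -0.95) and GINS3 had 0.04 ± 0.25 (adjusted p = 0.91), whereas the BRM knockout had -2.45 for GINS1, -1.77 for GINS3 and -3.01 for GINS4. CDC45, the other helicase activator, had -0.48 ± 0.53 (adjusted p = 0.49) in the BRG1 knockout and -3.14 ± 0.58 (adjusted p = 0.0026) in the BRM knockout. ORC1 fell in both knockouts (-1.33 in the BRG1 and -2.65 in the BRM knockout), and ORC6 had -0.65 ± 0.31 (adjusted p = 0.11) in the BRG1 and -2.42 in the BRM knockout. The BRG1 calls for GINS4 and ORC1 were lost in 4 and 3 alternatives.

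Polymerase, clamp and Okazaki-fragment genes numbered 13. All 13 fell in the BRM knockout, with a median log2 fold change of -2.15, and 8 fell in the BRG1 knockout, with a median of -0.71. PCNA (ENSG00000132646.10, chr20:5114953-5126626, minus strand) had 107, 187 and 136 CPM in the BRG1 knockout libraries, 75.1, 39.1 and 33.8 CPM in the BRM knockout libraries and 171, 229 and 259 CPM in the parental libraries. BRG1 knockout library 2 was above parental library 1, so these groups overlapped, while the BRM knockout libraries lay below both. PCNA did not pass the test in the BRG1 knockout, with a log2 fold change of -0.62 ± 0.31 (adjusted p = 0.13), and fell 4.45-fold in the BRM knockout, with -2.15 ± 0.32 (adjusted p = 0.0007).

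FEN1, the nuclease that trims Okazaki flaps (ENSG00000168496.3, chr11:61792637-61797244, plus strand), had 54.4, 97.0 and 75.4 CPM in the BRG1 knockout libraries, 31.5, 20.1 and 11.1 CPM in the BRM knockout libraries and 123, 165 and 171 CPM in the parental libraries. The 3 groups did not overlap. FEN1 had the lowest value of the polymerase group in the BRM knockout, -2.88 ± 0.36 (adjusted p = 0.00033), and -1.02 ± 0.34 (adjusted p = 0.031) in the BRG1 knockout, a call lost in 7 alternatives. POLD1, the catalytic subunit of polymerase delta (ENSG00000062822.13, chr19:50384204-50418016, plus strand), had 74.8, 92.7 and 94.9 CPM in the BRG1 knockout libraries, 52.6, 63.0 and 51.5 CPM in the BRM knockout libraries and 123, 124 and 153 CPM in the parental libraries. These groups did not overlap either, although POLD1 had the smallest change of the 46 in the BRM knockout, -1.26 ± 0.16 (adjusted p = 0.00031), with -0.61 ± 0.16 (adjusted p = 0.0092) in the BRG1 knockout.

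POLA2, the accessory subunit of polymerase alpha (ENSG00000014138.8, chr11:65261762-65305589, plus strand), had 13.9, 22.5 and 24.4 CPM in the BRG1 knockout libraries, 12.2, 9.51 and 6.07 CPM in the BRM knockout libraries and 52.9, 71.9 and 63.8 CPM in the parental libraries. It was lower in every knockout library than in any parental library. POLA2 had the largest fall of the polymerase group in the BRG1 knockout, -1.63 ± 0.27 (adjusted p = 0.0008), and -2.76 ± 0.29 (adjusted p = 0.00014) in the BRM knockout. RFC4, a subunit of the clamp loader (ENSG00000163918.10, chr3:186789880-186807058, minus strand), had 22.9, 35.7 and 26.6 CPM in the BRG1 knockout libraries, 11.1, 11.8 and 5.97 CPM in the BRM knockout libraries and 37.6, 40.1 and 43.4 CPM in the parental libraries. The BRG1 knockout and parental libraries were close without overlapping, and the log2 fold changes were -0.51 ± 0.25 (adjusted p = 0.12) in the BRG1 knockout, which did not pass the test, and -2.07 ± 0.26 (adjusted p = 0.0003) in the BRM knockout. EIF4A2, which overlaps RFC4 on the other strand, held 1694% of its reads.

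In the BRG1 knockout the other polymerase-group genes that fell were RFC2 and RFC3 of the clamp loader, POLE2 of polymerase epsilon, the primase subunit PRIM1 and the ligase LIG1, with log2 fold changes of -0.71, -1.27, -1.01, -1.30 and -0.71. RFC5, POLA1 and POLE, the last being the catalytic subunit of polymerase epsilon, had -0.57 ± 0.22 (adjusted p = 0.052), -0.59 ± 0.26 (adjusted p = 0.084) and -0.76 ± 0.31 (adjusted p = 0.073) there. In the BRM knockout these 8 genes had log2 fold changes of -1.68 for RFC2, -2.33 for RFC3, -2.07 for RFC5, -1.62 for POLA1, -1.82 for POLE, -2.68 for POLE2, -2.50 for PRIM1 and -2.15 for LIG1. RFC5, POLE and POLA1 passed in the BRG1 knockout in 9, 5 and 4 alternatives. The BRG1 calls for RFC2, POLE2 and LIG1 were in turn lost in 7, 5 and 4 alternatives. RFC2 had an adjusted p of 0.046 there, and its BRG1 knockout and parental libraries overlapped. PRIM1 shares its locus with NACA on the same strand, which held 2871% of its reads. In all, 10 of the 46 overlap a gene with at least 20% as many reads. Beside GINS2, RFC4 and PRIM1, these were RFC5 with WSB2 (179%), FEN1 with TMEM258 (57.8%) and FADS2 (44.7%), TYMS with ENOSF1 (27.25%), CHAF1A with UBXN6 (267%), CHAF1B with MORC3 (191%), BRCA1 with AC060780.1 (48.6%) and FANCI with POLG (128%).

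The 4 nucleotide supply genes split in the BRG1 knockout and moved together in the BRM knockout. All 4 fell in the BRM knockout, with a median log2 fold change of -3.07, and 3 fell in the BRG1 knockout, with a median of -1.16. TK1, cytosolic thymidine kinase (ENSG00000167900.11, chr17:78174075-78187233, minus strand), had 49.8, 104 and 81.6 CPM in the BRG1 knockout libraries, 23.4, 27.4 and 12.3 CPM in the BRM knockout libraries and 175, 232 and 246 CPM in the parental libraries. No library overlapped between the groups. TK1 fell 2.77-fold in the BRG1 knockout, with a log2 fold change of -1.47 ± 0.32 (adjusted p = 0.0039), and 10.3-fold in the BRM knockout, with -3.37 ± 0.34 (adjusted p = 0.00014).

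RRM2, the small subunit of ribonucleotide reductase (ENSG00000171848.14, chr2:10120698-10131419, plus strand), had 37.8, 61.7 and 74.8 CPM in the BRG1 knockout libraries, 37.7, 36.6 and 10.2 CPM in the BRM knockout libraries and 126, 251 and 232 CPM in the parental libraries. BRG1 knockout library 1 and BRM knockout libraries 1 and 2 were nearly level, and all knockout libraries were below all parental ones. The log2 fold change was -1.81 ± 0.47 (adjusted p = 0.012) in the BRG1 knockout and -2.85 ± 0.49 (adjusted p = 0.0019) in the BRM knockout. RRM1, the large subunit (ENSG00000167325.14, chr11:4094707-4138876, plus strand), had 44.6, 59.1 and 77.0 CPM in the BRG1 knockout libraries, 31.9, 25.7 and 20.5 CPM in the BRM knockout libraries and 88.1, 124 and 114 CPM in the parental libraries. Its groups did not overlap, and the log2 fold changes were -0.85 ± 0.23 (adjusted p = 0.012) in the BRG1 knockout and -2.06 ± 0.24 (adjusted p = 0.00021) in the BRM knockout.

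TYMS, thymidylate synthase, which makes the thymidine nucleotide from its uridine precursor (ENSG00000176890.15, chr18:657604-673578, plus strand), had 99.0, 187 and 184 CPM in the BRG1 knockout libraries, 16.0, 8.55 and 5.09 CPM in the BRM knockout libraries and 74.2, 110.2 and 104 CPM in the parental libraries. BRG1 knockout libraries 2 and 3 were above every parental library and library 1 lay within the parental range, while every BRM knockout library was far below both groups. The BRG1 knockout did not pass the test against parental cells, with a log2 fold change of 0.70 ± 0.38 (adjusted p = 0.16), and the BRM knockout fell 9.74-fold, with -3.28 ± 0.41 (adjusted p = 0.00038). The direct difference between the knockouts, 3.98 ± 0.43 (adjusted p = 5.1e-05), or 15.8-fold higher in the BRG1 knockout, was the largest among the 46.

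**Figure D3:**
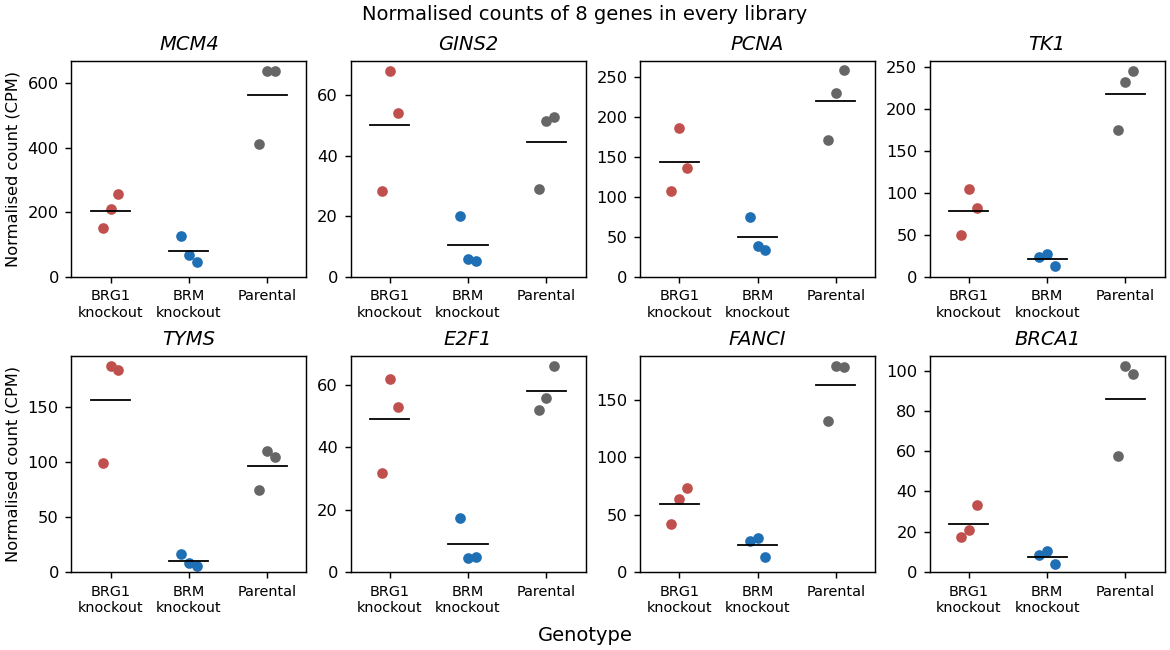
TMM-scaled counts per 1e6 reads (CPM, vertical axes starting at 0) of 8 replication genes in each library (points) of the BRG1 knockout, BRM knockout and parental groups, with the group mean as a line. MCM4, TK1, FANCI and BRCA1 step down in both knockouts, whereas BRG1 knockout points of GINS2, PCNA, TYMS and E2F1 reach into the parental range.

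The 5 genes of E2F factors and chromatin assembly fell in the BRM knockout, with a median log2 fold change of -2.51, and 0 of 5 passed edgeR's test in the BRG1 knockout, where the median was -0.31. UHRF1, which helps to copy DNA methylation to new strands (ENSG00000276043.4, chr19:4903080-4962154, plus strand), had 56.4, 88.6 and 128 CPM in the BRG1 knockout libraries, 31.3, 19.9 and 16.1 CPM in the BRM knockout libraries and 106, 147 and 151 CPM in the parental libraries. BRG1 knockout library 3 fell within the parental range, and the BRM knockout libraries lay below both groups. Its log2 fold change was -0.57 ± 0.31 (adjusted p = 0.17) in the BRG1 knockout and -2.59 ± 0.33 (adjusted p = 0.00035) in the BRM knockout. UHRF1 passed the BRG1 test when BRG1 knockout library 3 was left out, at an adjusted p of 0.029.

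E2F1, an activating E2F factor (ENSG00000101412.12, chr20:33675683-33686404, minus strand), had 31.9, 62.0 and 53.0 CPM in the BRG1 knockout libraries, 17.2, 4.40 and 4.81 CPM in the BRM knockout libraries and 52.0, 55.6 and 66.1 CPM in the parental libraries. BRG1 knockout libraries 2 and 3 lay within the parental range and library 1 below it. E2F1 had -0.24 ± 0.46 (adjusted p = 0.7) in the BRG1 knockout and -2.72 ± 0.50 (adjusted p = 0.0025) in the BRM knockout, 6.58-fold lower. E2F2, a related activator with the lowest level of the 46 in parental cells (ENSG00000007968.6, chr1:23506430-23531220, minus strand), had 3.27, 4.79 and 10.1 CPM in the BRG1 knockout libraries, 3.30, 1.45 and 1.29 CPM in the BRM knockout libraries and 6.88, 6.86 and 8.85 CPM in the parental libraries. The BRG1 knockout libraries spread on both sides of the parental range, with a log2 fold change of -0.31 ± 0.44 (adjusted p = 0.59), and the BRM knockout had -1.90 ± 0.46 (adjusted p = 0.0084). The sign of the BRG1 value turned to 0.44 when BRG1 knockout libraries 1 and 2 were left out. CHAF1A and CHAF1B, subunits of the histone chaperone that follows the fork, had -0.56 ± 0.27 (adjusted p = 0.12) and -0.26 ± 0.34 (adjusted p = 0.56) in the BRG1 knockout, and -2.51 and -2.16 in the BRM knockout.

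Fork checkpoint and repair genes had the lowest BRG1 median of the 5 role groups. All 8 fell in the BRM knockout, with a median log2 fold change of -3.05, and 7 of 8 fell in the BRG1 knockout, with a median of -1.38. FANCI, a component of the Fanconi anaemia repair pathway (ENSG00000140525.17, chr15:89243949-89317261, plus strand), had 41.5, 63.5 and 73.2 CPM in the BRG1 knockout libraries, 27.1, 29.2 and 12.9 CPM in the BRM knockout libraries and 132, 179.8 and 179 CPM in the parental libraries. The 3 groups did not overlap. FANCI fell 2.75-fold in the BRG1 knockout, with a log2 fold change of -1.46 ± 0.30 (adjusted p = 0.0031), and 7.09-fold in the BRM knockout, with -2.83 ± 0.32 (adjusted p = 0.00021). FANCD2, its partner (ENSG00000144554.10, chr3:10026414-10101930, plus strand), had 17.4, 22.9 and 40.5 CPM in the BRG1 knockout libraries, 8.98, 16.2 and 7.82 CPM in the BRM knockout libraries and 55.0, 70.8 and 74.5 CPM in the parental libraries. Its groups did not overlap, and the values were -1.31 ± 0.34 (adjusted p = 0.0094) in the BRG1 knockout and -2.60 ± 0.35 (adjusted p = 0.00044) in the BRM knockout.

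BRCA1, a homologous recombination factor (ENSG00000012048.21, chr17:43044295-43170245, minus strand), had 17.3, 20.8 and 33.2 CPM in the BRG1 knockout libraries, 8.34, 10.3 and 4.15 CPM in the BRM knockout libraries and 57.8, 102 and 98.1 CPM in the parental libraries. The BRM knockout libraries were all below the BRG1 knockout libraries, and these were all below the parental ones. BRCA1 had the largest BRG1 knockout fall of the 46, -1.86 ± 0.36 (adjusted p = 0.002) or 3.62-fold, and -3.50 ± 0.38 (adjusted p = 0.00019) in the BRM knockout, or 11.3-fold. CLSPN, the checkpoint adaptor claspin (ENSG00000092853.13, chr1:35720218-35769967, minus strand), had 10.7, 15.3 and 33.1 CPM in the BRG1 knockout libraries, 7.91, 3.61 and 2.50 CPM in the BRM knockout libraries and 31.9, 74.0 and 63.3 CPM in the parental libraries. BRG1 knockout library 3 was above parental library 1, so these groups overlapped. Its log2 fold change was -1.52 ± 0.51 (adjusted p = 0.037) in the BRG1 knockout, a call lost in 7 alternatives, and -3.59 ± 0.56 (adjusted p = 0.0012) in the BRM knockout.

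EXO1, an exonuclease of mismatch repair and end resection (ENSG00000174371.16, chr1:241847967-241895148, plus strand), had 11.1, 20.5 and 21.7 CPM in the BRG1 knockout libraries, 5.20, 3.70 and 1.59 CPM in the BRM knockout libraries and 28.3, 42.6 and 40.3 CPM in the parental libraries. No library overlapped between groups, and the log2 fold changes were -1.06 ± 0.37 (adjusted p = 0.041) in the BRG1 knockout, lost in 8 alternatives, and -3.41 ± 0.41 (adjusted p = 0.00029) in the BRM knockout. BRCA2, a mediator of homologous recombination, and BLM, a helicase of recombination intermediates, fell in both knockouts, with -1.78 and -1.23 in the BRG1 knockout and -2.95 and -2.99 in the BRM knockout. RAD51AP1, an accessory factor of homologous recombination, had -1.09 ± 0.45 (adjusted p = 0.071) in the BRG1 knockout, where it passed in 5 alternatives, and -3.12 ± 0.49 (adjusted p = 0.00092) in the BRM knockout.

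Levels per length showed the same order of groups. The 46 genes summed to 1114, 1621 and 2057 TPM in BRG1 knockout libraries 1, 2 and 3, 845, 573 and 390 TPM in BRM knockout libraries, and 2473, 3677 and 3572 TPM in parental libraries. In parental cells the mean levels ran from 2.15 TPM for E2F2 to 415 TPM for MCM4, with PCNA at 291 TPM, TK1 at 278 TPM and MCM7 at 206 TPM next to the top. Subunits of the helicase, whose ring holds 1 copy of each of MCM2 to MCM7, were unequal at the RNA level. The highest of the 6 exceeded the lowest 3.39-fold to 3.95-fold in BRG1 knockout libraries, 4.32-fold to 7.99-fold in BRM knockout libraries and 5.95-fold to 9.95-fold in parental libraries. MCM4 was the highest in every BRG1 knockout and parental library, and MCM7 in every BRM knockout library.

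Among 90 other genes of the same pathways, 72 fell and 4 rose in the BRM knockout, with a median log2 fold change of -1.36. In the BRG1 knockout 43 fell and 4 rose, with a median of -0.58. Among all genes tested, 16.4% fell and 21% rose in the BRM knockout, and 21.9% fell and 21.6% rose in the BRG1 knockout. The BRG1 count of 47 was 27 without parental library 2 and 28 without parental library 3. In those fits 33.8% and 32.8% of all genes passed in either direction, so these counts were not above that share. The share of all genes that fell there was 17.4% and 16.8%. These counts are not split by direction here, so they cannot be set against the share that fell. Of 23 other origin and fork factors, 16 fell in the BRG1 knockout and 21 in the BRM knockout, led in the BRM knockout by DSCC1 of an alternative clamp loader (-3.27), the MCM homologue MCM8 (-3.17) and TICRR, a helicase activation factor (-2.83). Of 24 other checkpoint and repair genes, 10 fell in the BRG1 knockout and 22 in the BRM knockout, where BRIP1, XRCC2 and RAD54L, all of homologous recombination, had -2.86, -2.84 and -2.67. Of 8 replication-linked chromatin genes, 4 fell in the BRG1 knockout and 7 in the BRM knockout, where ASF1B, a histone chaperone, had -3.36. In the last 2 lists, 41.7% and 50% fell in the BRG1 knockout. That was above the 21.9% of all genes that fell and near the 43.5% that passed in either direction.

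Of 15 other E2F, DP, pocket and MuvB-related genes, 6 fell and 1 rose in the BRG1 knockout. There 43.5% of all genes passed in either direction, so the total was near that share. By direction, 40% of the list fell, beside 21.9% of all genes. In the BRM knockout 11 fell and 2 rose, beside 16.4% of all genes that fell and 21.0% that rose. FOXM1 and MYBL2, transcription factors of the later cell cycle, had log2 fold changes of -1.44 and -0.42 in the BRG1 knockout, the second of which did not pass the test (adjusted p = 0.46), and -3.64 and -3.55 in the BRM knockout. TFDP2, a DP partner of E2F factors, rose in both, with 1.83 ± 0.19 (adjusted p = 3.2e-05) in the BRG1 knockout and 1.01 ± 0.18 (adjusted p = 0.0019) in the BRM knockout. E2F7, a repressing E2F, fell in both, with -1.65 ± 0.29 (adjusted p = 0.0011) in the BRG1 knockout and -1.60 ± 0.29 (adjusted p = 0.002) in the BRM knockout, and the direct difference was -0.06 ± 0.29 (adjusted p = 0.89). The other 3 genes that rose in the BRM knockout, named after their values were seen, were E2F5 (0.61), the ribonucleotide reductase subunit RRM2B (1.30) and mitochondrial thymidine kinase TK2 (1.05). RRM2B and TK2 are known to supply nucleotides outside S phase, unlike RRM2 (-2.85) and TK1 (-3.37). In the BRG1 knockout POLD2, IMPDH2 and TK2 rose beside TFDP2, with 0.52, 0.48 and 0.53.

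Not all subunits of a complex fell. Of 11 other subunits of the origin recognition complex, clamp loader and polymerases, 4 fell and 1 rose in the BRG1 knockout, with a median log2 fold change of -0.39, and 5 fell in the BRM knockout, with a median of -0.51. The shares passing in either direction were near those of all genes, 43.5% in the BRG1 knockout and 37.4% in the BRM knockout. By direction, 36.4% of the 11 fell in the BRG1 knockout, beside 21.9% of all genes. In the BRM knockout 45.5% fell, beside 16.4% of all genes. With 11 genes the counts say little about these subunits as a list. In the BRM knockout PRIM2, POLD3, ORC3, ORC5 and POLE3 fell, with -1.81, -1.78, -1.27, -0.86 and -0.78. ORC2, ORC4, RFC1, POLD2, POLD4 and POLE4 did not pass there, with -0.03 ± 0.13 (adjusted p = 0.87), 0.13 ± 0.13 (adjusted p = 0.47), -0.26 ± 0.16 (adjusted p = 0.24), -0.41 ± 0.19 (adjusted p = 0.11), 0.33 ± 0.24 (adjusted p = 0.3) and -0.51 ± 0.23 (adjusted p = 0.1). For example, ORC1 averaged 9.67 ± 3.68 CPM in the BRG1 knockout, 3.87 ± 1.55 CPM in the BRM knockout and 24.2 ± 7.60 CPM in parental cells (SD, n = 3 each), whereas ORC2 averaged 40.9 ± 3.64 CPM in the BRG1 knockout, 48.1 ± 3.78 CPM in the BRM knockout and 49.2 ± 2.54 CPM in parental cells. The other genes of the 90 that did not pass in the BRM knockout were MCM9, TOP1, SAMHD1, E2F6, RBL2, RBBP4, RAD51B and RAD51D.

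**Figure D4:**
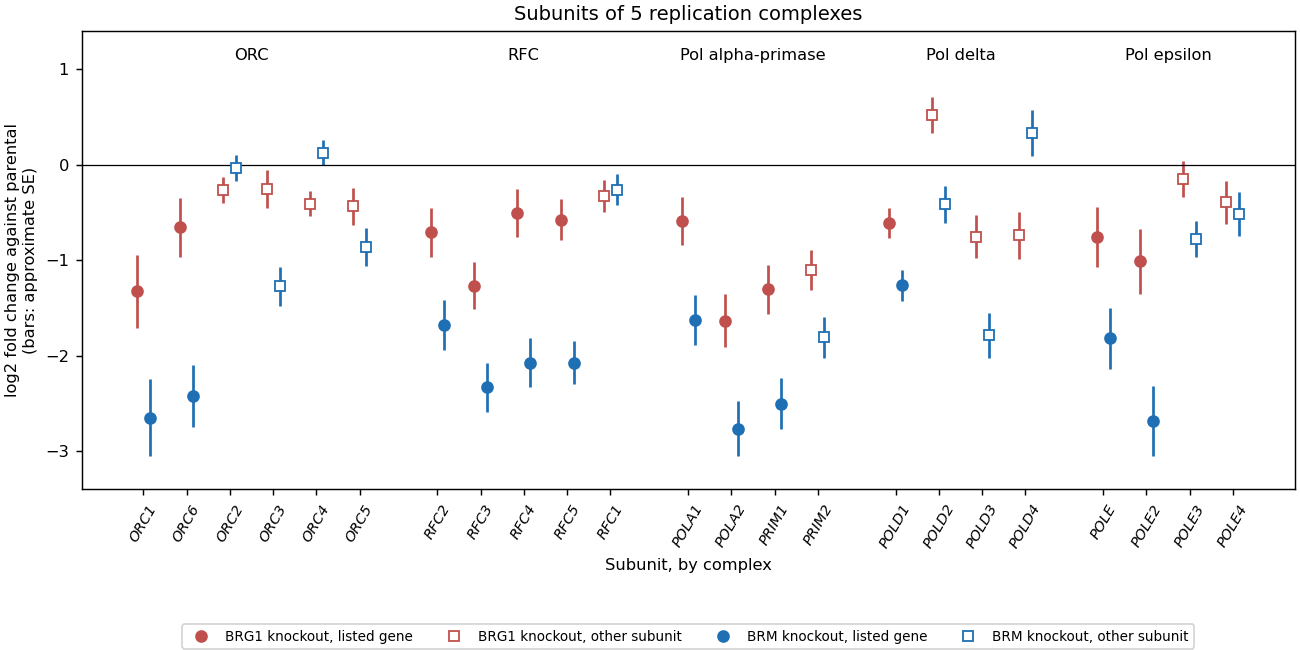
Log2 fold change against parental cells (vertical axis, bars for the approximate SE) of the subunits of 5 replication complexes in the BRG1 knockout (red) and BRM knockout (blue). Circles are among the 46 genes and squares are the other subunits, of which ORC2, ORC4, RFC1, POLD2, POLD4 and POLE4 lie between -0.51 and 0.33 in the BRM knockout.

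Mitosis genes, which act after replication in the same cell cycle, were examined beside them. All 24 fell in the BRM knockout, with a median log2 fold change of -2.97, led by HMMR (-3.85), MKI67 (-3.72) and PLK1 (-3.58). In the BRG1 knockout the median was -1.15 and 3 passed edgeR's test, CDK1, KIF11 and TOP2A, which is 12.5% of the list, beside 21.9% of all genes that fell. The 3 BRG1 knockout libraries lay below the 3 parental libraries for 19 of 24, beside 27.1% of all genes. The count of 3 that passed was 0 without parental library 2, parental library 3, BRG1 knockout library 1 or BRG1 knockout library 2, and 1 without parental library 1. It was 9 without BRG1 knockout library 3, and 11, 21 and 5 without BRM knockout libraries 1, 2 and 3. The BRG1 knockout was higher than the BRM knockout for 20 of the 24.

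The order of libraries within the BRM knockout differed between the mitosis genes and the replication genes taken as a whole. Library medians of the mitosis genes were -1.66, -1.29 and -0.73 in BRG1 knockout libraries 1, 2 and 3, -3.96, -1.99 and -3.88 in BRM knockout libraries 1, 2 and 3, and -0.24, 0.16 and 0.08 in parental libraries 1, 2 and 3. BRM knockout library 2 was the highest of its group for all 24 mitosis genes. Of the 46 replication genes, BRM knockout library 1 was the highest for 33 and library 2 for 13. The difference did not hold in every role group. Fork checkpoint and repair genes had medians of -2.85, -2.54 and -4.04 in BRM knockout libraries 1, 2 and 3, so library 2 was the highest there too. Medians over the 11 other subunits of the replication complexes, which moved in both directions, were between -0.47 and -0.27 in BRG1 knockout libraries, between -0.56 and -0.46 in BRM knockout libraries and between -0.18 and 0.10 in parental libraries.

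**Figure D5:**
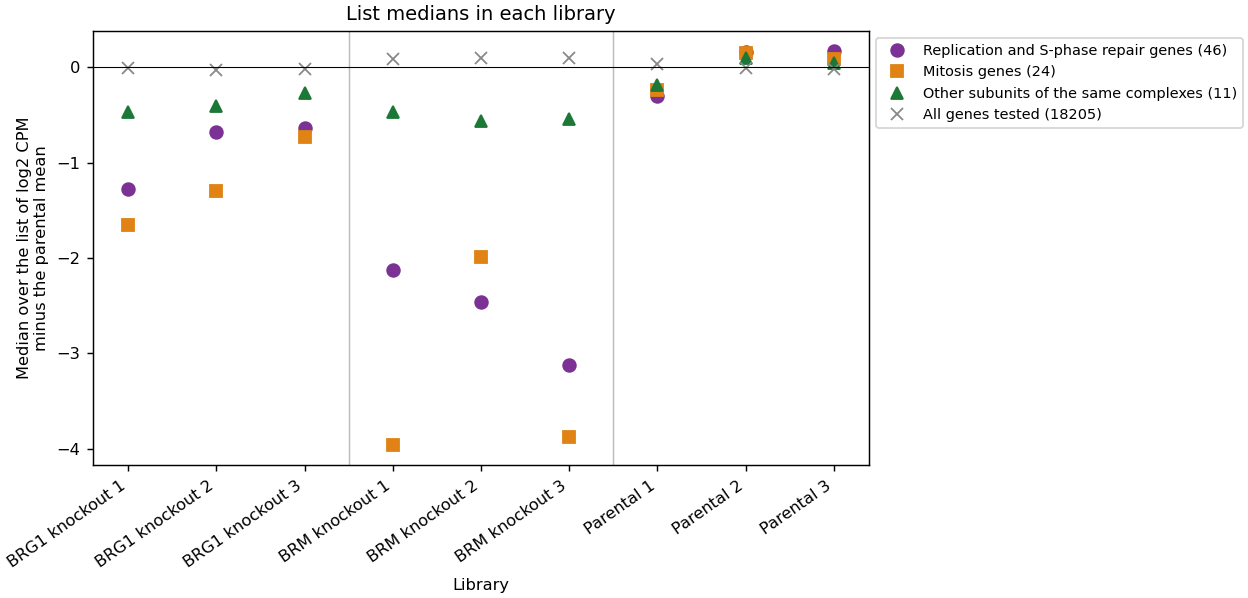
Median over each list of the log2 CPM difference from the parental mean (vertical axis) in each of the 9 libraries, for the 46 replication genes, 24 mitosis genes, 11 other subunits of the same complexes and all 18205 genes tested. BRM knockout library 2 is the highest of its group for mitosis genes at -1.99, while BRM knockout library 1 is the highest for replication genes at -2.12.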

How the data were processed

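Each library's file holds estimated counts per transcript, made by the authors with Salmon and, per the file headers, not normalized. The TPM values in the same deposited files were also computed by Salmon for the authors. They were used for levels per length, marker sums and isoform shares, and not for any test. Salmon, DESeq2 and hg38 are named in the submitters' processing notes. The tool versions, the annotation, the strand and the library type were not given in the sources used here. Of 203835 transcripts, 203746 were matched to a gene of GENCODE 29, whose hg38 coordinates are given, and the other 89 were dropped, with 0.0193% of the reads or less.

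Estimated counts were summed per gene and rounded, and filterByExpr of edgeR 4.0.16 (R 4.3.3) kept 18205 of 58237 genes. With TMM scaling, 1 model was fitted to all 9 libraries (glmQLFit, robust, 6 residual degrees of freedom, common biological coefficient of variation 0.253). Every adjusted p is a Benjamini-Hochberg value over all genes tested, from the two-sided quasi-likelihood F test, with a threshold of 0.05. The approximate SE of a log2 fold change is its size divided by the square root of F, since the fit itself reports none. The procedure was tested on simulated data with a common spread for all genes and no shift of a gene list between libraries of a group. The library differences described above were therefore not covered by that test. The alternatives used DESeq2 1.42.0 size factors and its Wald test, no filter, a mean of at least 1 CPM (counts per 1e6 reads), only the 6 libraries compared, a replicate block, each library left out in turn, and libraries left out in combination, of which leaving out BRG1 knockout libraries 1 and 2 was chosen after seeing the data.

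The 46 genes and all lists were chosen with earlier results of these data known, so no p was computed over a list. Values in every library are given, per role group, for the 2 genes with the highest parental TPM and those with the lowest and highest log2 fold change in each knockout. Replicate pairs differed by a chi-square of 10.7 to 189 per degree of freedom, so none was treated as a repeat deposit of the same library, which does not show that they are separate cultures. Libraries of the same number had deviations that correlated by -0.062 to 0.142 across genes, so the numbers were not taken as pairs.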

Additional observations from a re-analysis of the deposited data

How the results depend on the processing

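In the BRM knockout all 46 replication genes passed under every alternative run except no filter, where GINS2 did not, and the median log2 fold change was -2.92 to -2.29 with 1 library left out. In the BRG1 knockout the median was -1.04 to -0.72 with 1 library left out, while the count of 25 ran from 15 to 30, and it was 5 without BRG1 knockout libraries 1 and 2. Between the knockouts the median ran from 1.33 to 1.86 and the count of 44 from 38 to 45. The BRG1 count of 47 other replication genes ran from 27 to 62 with 1 library left out. In those fits 32.8% to 47.3% of all genes passed in either direction. The BRG1 count of 3 mitosis genes was 10 by DESeq2's Wald test, 0 with no filter, 19 with only the 6 libraries compared, 6 without parental library 1 and BRG1 knockout library 3, 0 without BRG1 knockout libraries 1 and 2, and 0 to 21 with 1 library left out. The 20 mitosis genes higher in the BRG1 than in the BRM knockout became 6 with no filter, 9 without parental library 1 and BRG1 knockout library 3, and 12 to 24 with 1 library left out. The cause was not tested.

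Values near 0 in the BRG1 knockout changed sign. GINS3 had -0.0435 with no filter and -0.40 without parental library 1 and BRG1 knockout library 3, and ran from -0.27 to 0.16 with 1 library left out. It was negative without parental library 1 (-0.08), BRG1 knockout library 2 (-0.02), BRG1 knockout library 3 (-0.27) or BRM knockout library 1 (-0.04). GINS2 had -0.18 without parental library 1 and BRG1 knockout library 3, and ran from -0.18 to 0.39 with 1 library left out, being negative without parental library 1 (-0.06) or BRG1 knockout library 2 (-0.18). E2F2 had 0.44 without BRG1 knockout libraries 1 and 2.

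With the replicate number as a block, 21 of the 46 genes passed in the BRG1 knockout, 46 in the BRM knockout and 44 between the knockouts, and 11 mitosis genes passed in the BRG1 knockout. The numbers were not taken as pairs, but parental library 1 and BRG1 knockout library 1 had deviations that correlated by 0.142 across genes. They were also the lowest of their groups for 45 and 46 of the 46 genes. Whether they share an effect of the replicate was not tested, so the calls lost under the block are not set aside.

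Promoter matches with 2 of the motifs, TTTCCCGC and TTTGGCGC, lay in 37.0% of the replication gene promoters and 2.27% of all promoters.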

Other observations

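The share of MCM7's TPM that Salmon gave to the isoform MCM7-201 was 41.6%, 44.0% and 65.2% in BRG1 knockout libraries 1, 2 and 3, 38.4%, 45.0% and 32.1% in BRM knockout libraries 1, 2 and 3, and 66.7%, 72.6% and 73.8% in parental libraries 1, 2 and 3. Every knockout library was below every parental library. The leading isoform's share did not overlap the parental range for 14 of the 46 genes in the BRG1 knockout, for 5 in the BRM knockout and for 3 in both. Those 3 were MCM7, PCNA and RFC5, and all knockout shares were lower. The same tally was not made over all genes, so whether these counts exceed that background cannot be told. PCNA-201 had 95.3% to 97.9% in BRG1 knockout libraries, 92.4% to 96.9% in BRM knockout libraries and 98.1% to 98.4% in parental libraries. RFC5-204 had 63.2% to 68.3% in BRG1 knockout libraries, 57.7% to 70.6% in BRM knockout libraries and 71.0% to 72.8% in parental libraries. MCM7 was singled out after these values were seen, the split between isoforms is an estimate, and the difference was not tested.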
